A study of Mus musculus with 10 samples.

Results

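S100 genes encode small proteins that bind calcium, and the 8 described here (S100a8, S100a9, S100a1, S100a4, S100a6, S100a10, S100a11 and S100a13) were taken by name, with each probe set that names that gene alone. They have 9 probe sets, 2 for S100a11 and 1 for each of the other genes, out of 35556 on the array, and they are 8 of 19938 genes with such a probe set. All 8 passed the filter on low signal, S100a4 through unstimulated arrays alone, and are among the 14070 genes tested. The arrays hold RNA of bone marrow neutrophils of female C57BL/6 mice aged 10 weeks, recovered at the interface of 62% and 81% Percoll. There were 2 arrays of Lcn2 knockout cells after fMLP, 2 of wild type cells after fMLP, 3 of unstimulated knockout cells and 3 of unstimulated wild type cells. fMLP, a formylated peptide like those bacteria release, was present for 20 minutes at 37 degrees, at a dose of 10 micromolar. Lcn2 encodes lipocalin 2, a neutrophil granule protein that binds bacterial iron carriers, and the study asks what it does in resting and stimulated neutrophils. The labels do not describe the knockout allele. They do not say whether replicates were separate animals or whether unstimulated cells were also kept at 37 degrees, so p-values measure the spread between these arrays, which may be technical.

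S100 proteins sense calcium through EF-hand loops, usually as dimers, and the calcium-bound form exposes a surface that grips a partner protein. S100A8 and S100A9 pair as calprotectin, among the most plentiful proteins of the neutrophil cytosol. Calprotectin starves microbes of zinc and manganese, and once released it acts on Toll-like receptor 4 and the receptor RAGE. The other members act mostly inside cells, on annexins, myosin, calcium channels and protein export.

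Values are the authors' RMA signals on a log2 scale, so a difference of 1 is a doubling of signal. The 10 arrays differ in spread. The 4 fMLP arrays and the third unstimulated array of either genotype, called array set 2, have interquartile ranges of 2.47 to 2.59. The 4 other unstimulated arrays, called array set 1, have 1.64 to 1.68. No fMLP array lies in set 1, so each fit holds the array set as a block, and the fMLP difference averaged over genotype then rests on set 2. All 12 neutrophil markers with a probe set lay above the array median on every array. Lcn2 stood at 8.42 and 9.60 in fMLP knockout cells and at 14.13 and 14.16 in fMLP wild type cells, and at 9.20, 8.36 and 8.09 in unstimulated knockout cells and 13.88, 13.93 and 14.02 in unstimulated wild type cells. Replicate 2 of the fMLP knockout cells stood apart. The mean of 13 neuron markers was 11.05 there, against 7.37 to 7.44 on the other fMLP arrays, and 12 of the 13 lay above the array median, against 2 on each of those. Sex-linked genes went against the labels, which call every sample female. Xist, which silences one X chromosome in females, was at 10.97 and 9.83 in fMLP knockout cells and at 11.12 and 11.04 in fMLP wild type cells, but at 6.94 and 6.88 on the unstimulated knockout and wild type arrays of set 2. The Y-linked gene Eif2s3y was at 9.59 and 9.83 on those 2 unstimulated arrays and at 5.36 to 6.48 on the fMLP arrays. The fMLP comparison is therefore also one between cells that differ in sex-linked genes, and the part of this in the S100 results was not tested.

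S100a8 and S100a9, the calprotectin genes, lie next to each other on chromosome 3 with no other coding gene between them in the RefSeq gene table. Their promoters are shown because these genes have the pair of motifs that no other member's promoter holds. Each window runs from 250 bases before to 50 bases after the RefSeq start of transcription (build GRCm38.p6). The S100a8 window is chr3:90668821-90669120 on the plus strand and the S100a9 window is chr3:90695672-90695971 on the minus strand. Capitals mark TTNNGNAA, the core bound by C/EBP factors, and TATAAA, the TATA box, each searched on both strands.
S100a8: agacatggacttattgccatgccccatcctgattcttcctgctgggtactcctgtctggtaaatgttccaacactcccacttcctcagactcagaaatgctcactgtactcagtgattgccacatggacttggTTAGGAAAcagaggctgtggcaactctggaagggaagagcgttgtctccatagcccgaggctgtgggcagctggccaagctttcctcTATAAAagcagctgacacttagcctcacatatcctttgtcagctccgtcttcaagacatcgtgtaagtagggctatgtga
S100a9: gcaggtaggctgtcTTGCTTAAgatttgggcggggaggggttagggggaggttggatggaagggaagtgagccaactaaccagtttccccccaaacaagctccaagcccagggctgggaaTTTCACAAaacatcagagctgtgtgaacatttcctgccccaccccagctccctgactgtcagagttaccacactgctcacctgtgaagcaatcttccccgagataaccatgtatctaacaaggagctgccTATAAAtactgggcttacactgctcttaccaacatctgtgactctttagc
With the start at position 0, the TATAAA match of S100a8 spans -30 to -25 and that of S100a9 spans 0 to 5. TTNNGNAA is at -117 to -110 in S100a8, and at -236 to -229 and -130 to -123 in S100a9. TTNNGNAA occurs in 40.7% of the 32851 promoters in the table, TATAAA in 13.6% and both together in 7.17%. Of the 7 members with an entry (S100a10 is not among them), S100a8 and S100a9 hold both, and S100a4 holds TATAAA alone. GAGGAAGT, a core bound by the myeloid factor PU.1, is in S100a8 and S100a4 and in 3.2% of all promoters. TTCNNNGAA, a STAT site, and TGACGTCA, a CREB site, are in none of the 7, against 8.3% and 1.79% of all promoters. A match describes these letters only.

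S100a8 and S100a9 were at the top of the signal range in every group. S100a8 had signals of 13.67 and 13.31 in fMLP knockout cells and of 13.72 on both arrays of fMLP wild type cells. In unstimulated cells it had 13.74, 13.30 and 13.79 on the knockout arrays and 13.71, 13.55 and 13.83 on the wild type arrays. Both fMLP knockout arrays were below both fMLP wild type arrays, the other groups overlapped, and the lowest values were those of fMLP knockout replicate 2 and unstimulated knockout replicate 2. S100a9 had signals of 13.77 and 13.56 in fMLP knockout cells and of 13.83 and 13.71 in fMLP wild type cells. Unstimulated, it had 13.49, 13.30 and 13.73 on the knockout arrays and 13.52, 13.60 and 13.78 on the wild type arrays. Its groups overlapped as well. Within the arrays S100a8 lay between the percentiles 99.5 and 99.9 of all probe sets and S100a9 between 99.6 and 99.8. They were 0.79 to 1.51 and 0.75 to 1.51 below the brightest probe set of their array. So close to the top of the range, a change in RNA may give little change in signal, and how far this held for S100a8 and S100a9 was not tested. By group mean the order for S100a8 was fMLP wild type (13.72 ± 0.0025, SD, n = 2), unstimulated wild type (13.70 ± 0.14, SD, n = 3), unstimulated knockout (13.61 ± 0.27, SD, n = 3) and fMLP knockout (13.49 ± 0.26, SD, n = 2). No neighbours in that order differed by more than the larger of their SDs.

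S100a11, whose protein binds annexins and takes part in membrane repair, was also near the top. Its brighter probe set read 14.03 and 13.69 in fMLP knockout cells and 13.999 and 13.988 in fMLP wild type cells. The same probe set read 13.60, 13.73 and 13.86 in unstimulated knockout cells and 13.68, 13.81 and 13.87 in unstimulated wild type cells. The percentile was 99.8 to 99.9 on every array. Its second probe set gave 13.63 to 14.01 over the 10 arrays and stayed close to the first. The RefSeq gene table also lists a pseudogene of S100a11, so RNA of near-identical copies may add to its signal.

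S100a6 encodes calcyclin, which binds annexins and a ubiquitin ligase adaptor and is made in growing cells. It had signals of 11.63 and 10.70 in fMLP knockout cells and of 11.93 and 11.89 in fMLP wild type cells. Its signals were 10.62, 9.97 and 12.21 in unstimulated knockout cells and 10.63, 10.55 and 12.58 in unstimulated wild type cells, where the third value of each group is the array of set 2. Within set 2 all 4 fMLP arrays were below both unstimulated arrays. S100a6 spanned the percentiles 90.4 to 98.3, and its unstimulated mean was 12.39 in set 2 and 10.44 in set 1. S100a1, whose protein tunes calcium handling in heart and muscle, followed a like pattern. Its signals were 9.85 and 9.34 in fMLP knockout cells and 9.96 and 10.06 in fMLP wild type cells. In unstimulated cells they were 8.83, 8.92 and 10.27 in the knockout and 8.87, 8.89 and 10.37 in the wild type, again with the array of set 2 last. The percentile of S100a1 was 65.8 to 86.9. S100a10, partner of annexin A2 at the cell membrane, had 10.85 and 10.41 in fMLP knockout cells and 10.76 and 10.66 in fMLP wild type cells. It had 9.47, 9.27 and 10.74 in unstimulated knockout cells and 9.38, 9.29 and 10.96 in unstimulated wild type cells, at percentiles from 79.2 to 91.7. For these 3 genes the unstimulated arrays of set 2 were higher than those of set 1 on average, by 1.95 for S100a6, 1.44 for S100a1 and 1.501 for S100a10. This gap exceeded that between any groups within set 2.

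S100a13, which helps export proteins that lack a signal peptide, such as FGF1 and IL-1 alpha, had signals of 10.15 and 9.52 in fMLP knockout cells and of 10.24 and 10.21 in fMLP wild type cells. In unstimulated cells it had 10.29, 9.94 and 10.07 in the knockout and 10.02, 9.81 and 10.10 in the wild type. Apart from the 9.52 of fMLP knockout replicate 2, its arrays lay within a narrow band, and its percentile was 79.6 to 93.7. S100a4, whose protein binds non-muscle myosin and promotes cell movement, lay near the middle of the range. It had 7.90 and 7.62 in fMLP knockout cells, 7.79 and 7.76 in fMLP wild type cells, 8.29, 8.52 and 7.96 in unstimulated knockout cells and 8.28, 8.04 and 8.004 in unstimulated wild type cells. Its percentile was 40.2 to 55.8. It passed the low-signal filter of 8.18 only through unstimulated arrays of set 1 (8.28, 8.29 and 8.52), and all its set 2 values lay below that level. S100a4 was the 1 member that was lower on the unstimulated arrays of set 2 than on all those of set 1, while 6 were higher and S100a13 overlapped. Of all tested genes, 47.6% were higher and 43.3% lower without overlap between those sets, so this split describes the arrays as a whole. Probe sets differ in how brightly they read, so these signals and percentiles place each gene within its array and do not rank the genes by RNA amount.

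**Figure D1:**
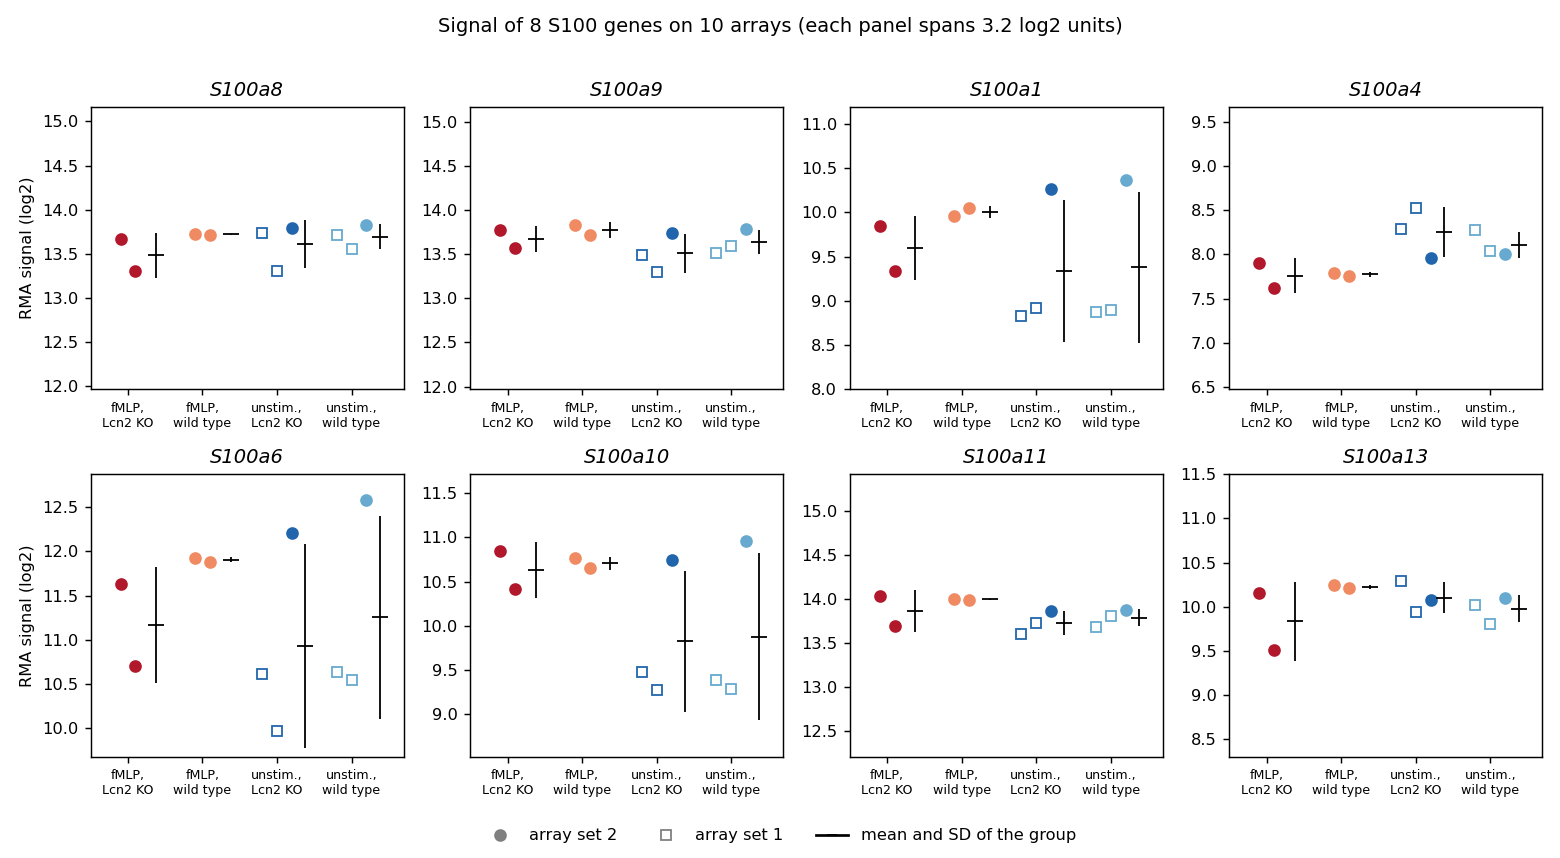
Each panel plots the log2 RMA signal of 1 gene on the 10 arrays by group, with filled circles for array set 2, open squares for array set 1, and the group mean with its SD in black. S100a8, S100a9 and S100a11 stay between 13.30 and 14.03, while S100a6, S100a1 and S100a10 are split by array set in the unstimulated groups.

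**Figure D2:**
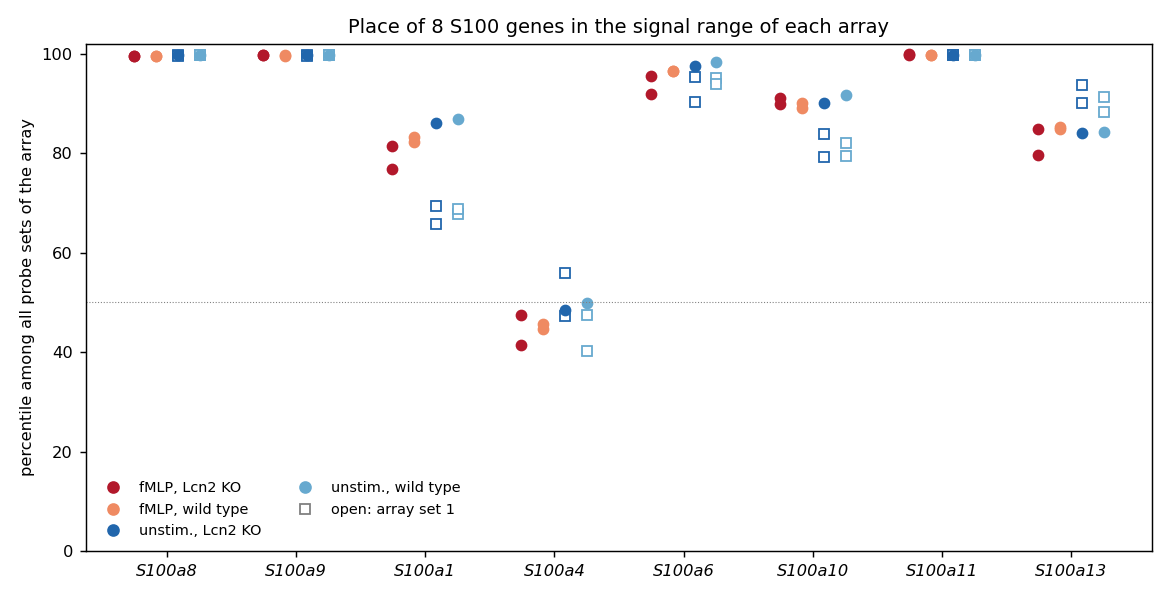
The percentile of each gene's signal among all 35556 probe sets of the same array is plotted by group, with open squares for array set 1. S100a8, S100a9 and S100a11 sit above the percentile 99.5 on all 10 arrays, and S100a4 lies between 40.2 and 55.8.

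The loss of Lcn2 was not accompanied by a called change in any S100 gene of unstimulated cells. In the knockout against the wild type, 0 of the 8 members passed the adjusted threshold of 0.05 in limma, where 1 of 14070 tested genes, Lcn2 itself, did (0.00711%). The differences of the 8 ran from -0.32 for S100a6 (SE 0.24, adjusted p = 1) to 0.15 for S100a4 (SE 0.13, adjusted p = 1), with a median of -0.06 against 0.01 over all tested genes. S100a8 differed by -0.09 (95% interval -0.41 to 0.24) and S100a9 by -0.12 (95% interval -0.36 to 0.11). Both intervals span 0 and leave changes in either direction possible. Knockout and wild type arrays overlapped for all 8 members. Among all tested genes 0.149% were lower and 0.476% higher without overlap. Lcn2 differed by -5.39 (SE 0.33, adjusted p = 0.00266).

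After fMLP, the knockout signals of all 8 members were on average below the wild type signals. Without the array that stands apart, 4 of the 8 differences were above 0 and 4 below. No member passed in limma (0 of 8), and Lcn2 was again the 1 gene called (0.00711%). The median difference of the 8 was -0.18, against -0.05 for all tested genes. S100a6 differed by -0.74 (SE 0.30, unadjusted p = 0.0376, adjusted p = 0.416), S100a1 by -0.41 (SE 0.16, unadjusted p = 0.0352, adjusted p = 0.416) and S100a13 by -0.39 (SE 0.22, adjusted p = 0.416). S100a8 differed by -0.24 and S100a9 by -0.10. The 2 knockout arrays were both below the 2 wild type arrays for S100a8, S100a1, S100a6 and S100a13, where 26% of all tested genes were lower and 17.3% higher in this way. Without fMLP knockout replicate 2, the differences were -0.28 for S100a6, -0.16 for S100a1, -0.07 for S100a13 and -0.05 for S100a8. They were 0.00155 for S100a9, 0.03 for S100a11, 0.13 for S100a4 and 0.14 for S100a10, and the median of the 8 was -0.03. When replicate 1 of the fMLP knockout cells was left out in its place, so that the array standing apart was the only one of its group, S100a6 (-1.21), S100a1 (-0.67) and S100a13 (-0.71) were among the 4397 genes called lower (31.3%).

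That array was lower than the 3 other fMLP arrays for each of the 8 members, and for 52.7% of all tested genes. It deviated from their mean by -1.11 for S100a6 (10.70 against 11.63 to 11.93), and 2.09% of the tested genes were lower than that. For S100a13 it read 9.52 against 10.15 to 10.24, and for S100a1 9.34 against 9.85 to 10.06. The other deviations were -0.40 for S100a8, -0.35 for S100a10, -0.31 for S100a11, -0.21 for S100a9 and -0.19 for S100a4. For S100a8 31.2% and for S100a9 42.2% of the tested genes deviated further down. The median over all tested genes was -0.11. S100b, the family member best known from astrocytes, was higher on this array, at 8.60, against 7.80 to 8.02 on the other fMLP arrays. Neuron markers move with these values as described above, and their part in them was not tested.

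S100a6 and S100a1 had the most negative fMLP differences of the 8, and neither passed the test with all arrays. Averaged over genotype, S100a6 differed by -0.86 (SE 0.26, adjusted p = 0.188) and S100a1 by -0.51 (SE 0.14, adjusted p = 0.158). Among the members 0 of 8 were called, where 48 of the tested genes were (0.341%). The other members differed by -0.21 (S100a8), -0.21 (S100a4), -0.18 (S100a10), -0.06 (S100a13), -0.04 (S100a9) and 0.06 (S100a11). The median of the 8 was -0.19, against -0.02 for all tested genes. On the arrays of set 2, all fMLP values of S100a8, S100a1, S100a4 and S100a6 were below both unstimulated values, and 20.2% of all tested genes were lower and 11.9% higher in that way. The S100a4 values on these arrays all lay below the filter level of 8.18.

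Without fMLP knockout replicate 2, S100a6 and S100a1 were lower on the fMLP arrays than on the unstimulated arrays of set 2. Those unstimulated arrays, a single one per genotype, also differ from the fMLP arrays in sex-linked genes, and the part of this was not tested. S100a6 differed by -0.63 (SE 0.16, adjusted p = 0.0355) and S100a1 by -0.39 (SE 0.09, adjusted p = 0.0254) in limma. These 2 of the 8 members stand against 3.79% of tested genes called lower and 6.36% called higher in the same fit, and the other 6 did not pass. Leaving out fMLP knockout replicate 1 also gave both genes as called, S100a6 at -1.09 and S100a1 at -0.64, where 16.9% of tested genes were called lower. The calls depend on the scaling. With all arrays quantile normalized and without fMLP knockout replicate 2, the differences were -0.66 for S100a6 (adjusted p = 0.194) and -0.34 for S100a1 (adjusted p = 0.199). Without the array set as a block, which sets the fMLP arrays against unstimulated arrays of both sets, the differences over all arrays turned to 0.44 for each of these genes and did not pass (adjusted p = 0.509 and 0.369). On single arrays of set 2, S100a6 differed from the unstimulated array of its genotype by -0.58 and -1.51 in the knockout and by -0.65 and -0.70 in the wild type.

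The calprotectin genes did not pass after fMLP in either genotype. In knockout cells the fMLP difference was -0.28 for S100a8 (95% interval -0.72 to 0.15) and -0.03 for S100a9 (95% interval -0.34 to 0.29). In wild type cells it was -0.13 for S100a8 (95% interval -0.57 to 0.30) and -0.05 for S100a9 (95% interval -0.36 to 0.27). No member was called in knockout cells, where 0.0853% of tested genes were, or in wild type cells, where 0.0782% were. S100a6 differed by -1.07 in knockout cells (SE 0.32, adjusted p = 0.221) and by -0.65 in wild type cells (SE 0.32, adjusted p = 0.682), and S100a1 by -0.70 (adjusted p = 0.187) and -0.33 (adjusted p = 0.703). S100a13 was at -0.31 in knockout cells and 0.20 in wild type cells. The difference between the genotypes in the fMLP response, tested as an interaction, passed for 0 of the 8 members and for 0 of the 14070 genes (0%) in limma, with 258 genes at an unadjusted p below 0.05. It was -0.51 for S100a13 (adjusted p = 0.776) and -0.42 for S100a6 (adjusted p = 0.776), and without fMLP knockout replicate 2 it was -0.19 and 0.04.

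**Figure D3:**
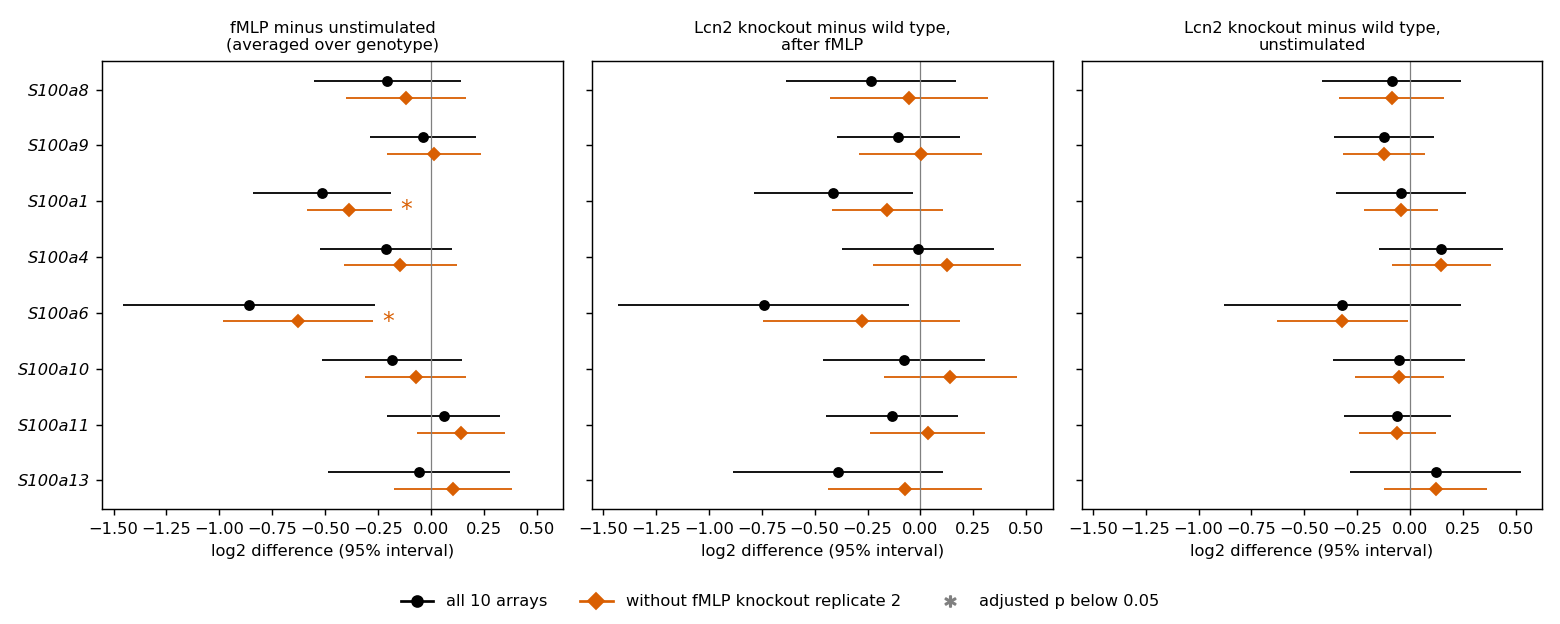
Points are log2 differences from limma with 95% intervals for the 8 genes, for all 10 arrays (black circles) and without fMLP knockout replicate 2 (orange diamonds), and an asterisk marks an adjusted p below 0.05. The asterisks are at S100a1 (-0.39) and S100a6 (-0.63) for fMLP minus unstimulated cells without that array.

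Markers of other cells moved in the same comparison as S100a6 and S100a1. The mean signal of 11 monocyte and macrophage markers was 8.81 and 9.68 in fMLP knockout cells, 9.43 and 9.68 in fMLP wild type cells, 10.34 on the unstimulated knockout array of set 2 and 10.68 on the wild type one. All 11 were below 0 in the fMLP comparison (median -1.03) and 3 of them fell, Ccr2 (-2.08), Fn1 (-2.12) and F13a1 (-1.74), where 0.341% of all tested genes were called. Without fMLP knockout replicate 2, 10 of the 11 were below 0, with a median of -0.78. In that fit 6 of the 11 were called lower, against 3.79% of all tested genes. Of 6 eosinophil markers tested, 4 fell with all arrays and 5 without fMLP knockout replicate 2. The mean over 7 eosinophil markers was 7.83 to 8.58 on the fMLP arrays. It was 10.04 and 10.03 on the unstimulated knockout and wild type arrays of set 2. The 8 markers of immature neutrophils had a median of -0.94 and 0 called with all arrays. Without fMLP knockout replicate 2 all 8 were below 0, with a median of -0.75 and Ctsg at -1.24. In that fit 5 of the 8 were called lower, where 3.79% of all tested genes were. Mature neutrophil markers had 0 of 12 called and a median of -0.13. Among lymphocyte markers without that array, 4 of 5 for T and NK cells were above 0 (median 1.26). For B cells 6 of 8 were above 0 and 2 below (median 0.59). In that fit 4 of the 5 T and NK cell markers were called higher. Of the 8 B cell markers, 5 were called higher and 1 lower. Among all tested genes 6.36% were called higher and 3.79% lower there. With all arrays, 0 of either list were called. Of 5 tested basophil and mast cell markers, 4 were below 0 and 1 above with all arrays, and 2 fell, Mcpt8 (-1.64) and Cpa3 (-1.57). No cell type list left unnamed here had a member called with all arrays. In such bulk samples fewer cells of a type and less RNA per cell cannot be told apart, and the part of these cells in the S100 results was not tested.

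Genes of the proteins that S100 proteins act on or answer to were set beside the members. Of 7 tested receptor genes 1 was called after fMLP, where 0.341% of all tested genes were. This was Cd14, which hands ligands to Toll-like receptor 4, and it rose. Cd14 had signals of 10.71 and 10.23 in fMLP knockout cells and of 10.71 and 11.44 in fMLP wild type cells, against 8.43 and 8.52 on the unstimulated knockout and wild type arrays of set 2 (difference 2.30, SE 0.21, adjusted p = 0.00694). Tlr4 itself was at -0.79 (adjusted p = 0.259) and its partner Ly96 at -1.47 (adjusted p = 0.0961). Without fMLP knockout replicate 2 both fell, Tlr4 at -0.49 (adjusted p = 0.0439) and Ly96 at -1.25 (adjusted p = 0.00583), and Ager, the gene of RAGE, stayed at -0.19 (adjusted p = 0.249). In that fit 3.79% of all tested genes were called lower and 6.36% higher. Of 14 tested binding partners 0 were called with all arrays. They include Anxa2, partner of S100a10, at -0.43 (adjusted p = 0.478), Anxa1, partner of S100a11, at -0.21 (adjusted p = 0.803), Cacybp, the calcyclin-binding protein gene, at -0.39 (adjusted p = 0.408), and Myh9, a myosin bound by S100a4, at -0.48 (adjusted p = 0.333). Anxa11 alone rose without fMLP knockout replicate 2 (0.54, adjusted p = 0.0126).

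Of 11 genes that are known to act on S100a8 and S100a9, 0 were called after fMLP with all arrays. The C/EBP genes, whose proteins drive granulocyte development, were at -0.43 (Cebpa), 0.42 (Cebpb), -0.20 (Cebpd) and -0.20 (Cebpe). Without fMLP knockout replicate 2, 8 of the 11 were above 0 and 3 below, with Irf7 at 0.86, Klf6 at 0.58 and Pdcd4 at 0.94. In that fit 3 of the 11 were called higher and 0 lower, where 6.36% of all tested genes were called higher and 3.79% lower. The median of the 11 was then 0.03, against -0.01 for all tested genes. In knockout against wild type cells, with or without fMLP, 0 members of the receptor, partner and regulator lists were called. Among all tested genes 0.00711% were called in each of these comparisons. All 11 regulators were below 0 in both, with medians of -0.13 unstimulated and -0.47 after fMLP. Over all tested genes the medians were 0.01 and -0.05. Without fMLP knockout replicate 2 the 11 stayed below 0 after fMLP (median -0.12). The part of this in the S100 results was not tested. Of 9 other S100 genes, 8 had a probe set and 6 were tested, and 0 of these were called in any comparison. After fMLP they ran from -0.19 for S100a14 to 0.09 for S100g, with a median of -0.05.

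Most S100 genes lie together on chromosome 3. From S100a1 to S100a9 the RefSeq table places 12 S100 genes side by side with no other coding gene between them, and S100a11 and S100a10 follow next to each other farther on. S100a5 and S100a7a, which flank S100a6, differed by 0.06 and -0.16 after fMLP, where S100a6 was at -0.86. Their set 2 means were 7.65 with fMLP and 7.59 without for S100a5, and 8.32 and 8.48 for S100a7a. S100a6 averaged 11.54 and 12.39, so its neighbours were read at far lower signal. The difference between neighbours, and how far low signal limits a fall, was not tested. The window of S100a6, chr3:90612644-90612943 on the plus strand, is shown because it is the only member's promoter with a CCAAT box, and because it also holds the E-box CACGTG (both in capitals, the CCAAT box on the minus strand as ATTGG).
S100a6: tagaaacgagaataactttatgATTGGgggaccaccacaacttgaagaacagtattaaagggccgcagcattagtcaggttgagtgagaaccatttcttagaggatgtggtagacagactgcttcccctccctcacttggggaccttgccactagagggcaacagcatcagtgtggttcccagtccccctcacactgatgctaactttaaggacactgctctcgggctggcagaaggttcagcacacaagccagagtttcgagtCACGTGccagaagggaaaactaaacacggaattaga
CCAAT is in 37.4% and CACGTG in 7.15% of all promoters, and CACGTG is also in that of S100a11. S100a11 is the 1 member with TGANTCA, the AP-1 site (7.81% of all promoters). The G-rich GGGNGG is in 6 of the 7 and in 68.6% of all.

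S100a1 and S100a13 share their start region. Their transcripts run in opposite directions from starts 105 bases apart, and their windows have 204 bases in common. The S100a1 window, chr3:90514281-90514580 on the minus strand, is printed with the stretch from the S100a13 start to the S100a1 start in capitals.
S100a1: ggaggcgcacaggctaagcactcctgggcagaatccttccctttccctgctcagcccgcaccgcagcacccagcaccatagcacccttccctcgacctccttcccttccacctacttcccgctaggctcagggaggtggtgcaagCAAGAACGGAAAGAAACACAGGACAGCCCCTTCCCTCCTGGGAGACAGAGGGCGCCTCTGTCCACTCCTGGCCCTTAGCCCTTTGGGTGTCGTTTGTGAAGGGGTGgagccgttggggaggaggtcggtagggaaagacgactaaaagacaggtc
Without fMLP knockout replicate 2, the fMLP difference was -0.39 for S100a1 and 0.10 for S100a13 (SE 0.13). Between the unstimulated arrays, S100a1 averaged 10.32 in set 2 and 8.88 in set 1, and S100a13 averaged 10.09 in set 2 and 10.02 in set 1. The difference between the 2 genes was not tested.

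**Figure D4:**
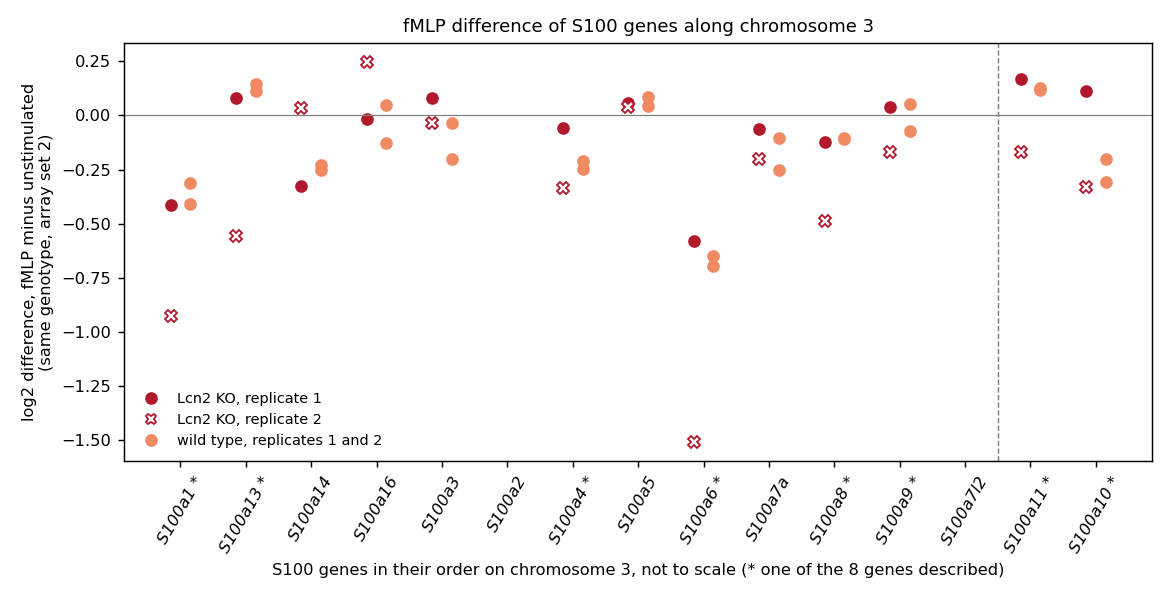
For each S100 gene in its order on chromosome 3, points give the log2 signal of a single fMLP array minus that of the unstimulated array of the same genotype in array set 2, with crosses for fMLP knockout replicate 2 and the dashed line at a gap of 54 other coding genes. S100a6 is at -0.58, -1.51, -0.65 and -0.70, below its neighbours S100a5 and S100a7a, which had far lower signals. S100a2 and S100a7l2 have no value used.

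The genes that moved most like each member were sought over the 10 arrays, after the mean of each array set had been taken off. S100a8 was most like Asb8 (Pearson r 0.985), Camp (0.977), the gene of the antimicrobial granule peptide cathelicidin, and Oxsm (0.977). S100a9 was most like Map2k2 (0.948), S100a6 like Chst11 (0.992), S100a1 like Ugp2 (0.996), S100a11 like Ppp6r1 (0.989), S100a13 like Rab43 (0.982), S100a4 like Gstm4 (0.948) and S100a10 like Abca2 (0.944). Without fMLP knockout replicate 2 these values were 0.970 for Asb8, 0.968 for Camp and 0.977 for Chst11, and 0.885 for Abca2. Over the 28 pairs of members, r ran from -0.19 (S100a9 with S100a4) to 0.919 (S100a8 with S100a6), with a median of 0.577 and 1 pair below 0. Without that array it ran from -0.74 to 0.813 for the same pairs, with a median of 0.108 and 12 pairs below 0. For S100a8 with S100a9 it was 0.773, and 0.598 without that array. These values describe 10 arrays that share cell type and processing, and the genes named are the closest of 14070.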

How the data were processed

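Each sample's RNA was hybridised to 1 Affymetrix Mouse Gene ST array. The deposited signals were made by the authors with RMA in Affymetrix Expression Console, per the submitters' processing notes, which give no version. The deposited values are taken as log2 from their range (medians of 7.98 to 8.37, maxima of 14.55 to 14.81), since the base is not given in the sources used here. Of 35556 probe sets, 21789 have 1 gene symbol in the platform annotation, 1621 several and 12146 none. A gene is given by its brightest probe set and was tested where at least 2 arrays exceeded the median of all values, 8.18.

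Fits used limma 3.58.1 in R 4.3.3 with a coefficient per group, the array set as a block (split at an interquartile range of 2) and 5 residual degrees of freedom. P-values were adjusted by Benjamini-Hochberg over all 14070 genes, and a gene is called below 0.05. The few arrays per group limit the precision. On simulated data, 73 of 100 genes changed by 1 and 95 of 100 changed by 2 on the log2 scale were recovered in the fMLP comparison averaged over genotype (14070 genes). Another 9 genes were called falsely. The simulated noise was independent between genes and held no array standing apart, so these shares need not hold for the real arrays. Knockout against wild type after fMLP was not simulated. The members and lists were chosen with earlier results of these data known. The text names every member, the genes of the molecule lists that passed or pair with a member, and the genes most like each member. Some cell type markers were named after their values were seen. Alternatives changed the block, normalization, filter, probe set rule, moderation, array weights and the arrays included. Deviations of same-numbered arrays from their group means correlated at 0.929 to 0.988 without fMLP, and at 0.376 and 0.371 for replicates 1 and 2 once the array set was removed, but at 0.0598 after fMLP. Since not every pair exceeded 0.1, the replicate number was not taken as a pairing. With 2 arrays per fMLP group both pairs must give the same value, and it includes fMLP knockout replicate 2. For replicate 3 the value once the array set is removed is fixed at -1 by the fit. These values therefore cannot tell whether same-numbered arrays were paired. Promoters are RefSeq sequences of build GRCm38.p6.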

Additional observations from a re-analysis of the deposited data

How the results depend on the processing

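In unstimulated knockout against wild type cells, 0 members were called in 27 of 27 alternatives. Leaving out 1 array gave 0 to 3 members called for knockout against wild type after fMLP, 0 to 2 for fMLP averaged over genotype, 0 to 4 for fMLP in knockout cells and 0 to 3 for the interaction. The highest values came without fMLP knockout replicate 1, where 45.5%, 28.8%, 38.6% and 35% of all tested genes were called in those comparisons in turn, and, for the 2 averaged over genotype, also without replicate 2 (10.1%). Array weights gave 2 members for fMLP averaged over genotype (5.44% of all tested genes) and 2 in wild type cells (26.5%), and only the arrays compared gave 1 in wild type cells (2.5%). Array set 2 alone without fMLP knockout replicate 2, chosen after seeing the data, gave 2 averaged over genotype (22.2%), 1 in knockout cells (6.67%) and 1 in wild type cells (10.8%). With the replicate number as a block in place of the array set, 5 members were called averaged over genotype (83.6%), 4 in knockout cells (74.2%) and 4 in wild type cells (80.9%), shares of members below those of all genes. That replicate block turned the averaged differences to 0.92 (S100a1), 1.32 (S100a10), 1.10 (S100a6) and 0.24 (S100a9), those in knockout cells to 0.74 (S100a1), 1.31 (S100a10) and 0.88 (S100a6), and those in wild type cells to 1.11 (S100a1), 1.33 (S100a10) and 1.31 (S100a6). By its construction it sets the fMLP arrays against unstimulated arrays of set 1. The cause of the other changes was not tested. Genes called for fMLP averaged over genotype numbered 48 with all arrays and 0 to 11758 over the alternatives, with 10 without the array set block, all higher, 765 with array weights, 4055 without fMLP knockout replicate 1 and 1428 without replicate 2. Without unstimulated replicate 3, limma called 0 genes when it was the knockout array (740 at an unadjusted p below 0.05) and 0 when it was the wild type array (695). Quantile normalization gave S100a6 -0.82 (adjusted p = 0.238) and S100a1 -0.42 (adjusted p = 0.241).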
